A study of Mus musculus with 9 samples.

Results

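The nuclear-encoded genes of the mitochondrial respiratory chain were followed in sorted mouse CD4+ T cells before and during allergic airway inflammation. They were all genes of the array whose symbol begins with Nduf followed by a, b, c, s or v, with Uqcr, with Cox4 to Cox8 or with Atp5, together with Sdha, Sdhb, Sdhc and Sdhd. A gene was represented by its brightest probe set among those that name it alone. This rule gave 89 genes out of 19937, with 36 subunits of complex I, 7 complex I assembly factors (Ndufaf genes), 4 genes of complex II, 8 of complex III, 17 of complex IV and 17 of complex V. The sorting into complexes was by symbol, so Ndufa4 stands under complex I although its protein is now regarded as part of complex IV. A further 6 probe sets name several genes (Cox7c with Gm12338, Ndufb4 with Ndufb4b, Ndufs5 with a pseudogene) and were not used, and the subunits encoded in mitochondrial DNA are not analysed here. Of the 89 genes, 17 have several probe sets. Many genes of the chain have processed copies elsewhere in the genome, and whether a probe set also reads such a copy was not tested.

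The respiratory chain passes electrons from NADH (complex I) and succinate (complex II) through complex III and cytochrome c to oxygen (complex IV), and complexes I, III and IV pump protons across the inner mitochondrial membrane. Complex V, the ATP synthase, uses the returning protons to make ATP. T cells that are activated through their antigen receptor raise both glycolysis and mitochondrial respiration, and new respiratory chain subunits are made from nuclear and mitochondrial genes together.

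RNA came from 3 groups with 3 arrays each, labelled as biological replicates and measured on Affymetrix Mouse Gene 1.0 ST arrays. Naive cells were spleen CD4+ CD62L+ CD44- T cells, taken at day 29 from mice given sham treatment. Acute Th2 cells were CD4+ CD69+ ST2+ cells from the lung at day 29, after ovalbumin (OVA) aerosol on 3 days in a row, and chronic Th2 cells had the same gate and organ at day 104, when aerosol had been given for 12 weeks with 2 challenges a week. The protocol, worded alike on every sample, gives 3 intraperitoneal doses of 10 µg OVA with 1.5 mg aluminium hydroxide on days 1, 14 and 21 and an aerosol of 1% OVA. Whether the sham-treated mice received the injections is not stated. By the protocol, cells of all groups were kept for 8 h with antibodies to CD3 and CD28 after the sort, so no group was meant to show resting cells, although one naive array lacked high levels of genes induced by such stimulation (given in the next paragraph). The labels used here give neither strain nor age of the mice, nor whether animals were pooled. Organ (spleen or lung, with enzyme digestion of the lung) and cell state cannot be told apart between naive and Th2 cells, nor can day and stage of inflammation between both Th2 groups.

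Defining T cell genes were above background in every group, and all 6 measured Th2 genes were called higher in both Th2 groups. The ST2 gene Il1rl1 is not analysed here. Of the gate genes set beside the labels, Cd44 was called higher by 1.93 and 1.89 in acute and chronic Th2 cells (limma adjusted p = 0.00029 and 0.000335), while Cd4 was called in neither comparison. Cd4 read 10.81 on naive 1, 9.49 and 9.60 on naive 2 and 3, and from 9.70 to 10.35 on the Th2 arrays. Cd69, a gate marker of the Th2 groups and itself induced by activation, was not higher in them. It read 10.59, 12.08 and 12.20 in naive cells and from 10.22 to 11.34 on the 6 Th2 arrays, with differences of -0.51 and -1.09 that were not called (limma adjusted p = 0.683 and 0.158). In 12 marker lists of other cell types, from B cells to lung epithelium and muscle, 3 genes were called, chosen for naming after their values were seen. Ccr3 (1 of 4 eosinophil genes) was higher in both Th2 groups by 0.91 and 1.08, Sftpa1 (1 of 10 lung epithelium genes) was higher in chronic Th2 cells by 0.54, and Cd79a (1 of 6 B cell genes) fell there by 0.61. The mean level of these lists ranged from 5.88 to 6.08 in naive, 6.10 to 6.32 in acute and 6.23 to 6.40 in chronic Th2 cells for eosinophils, and for lung epithelium from 6.05 to 6.07, 6.03 to 6.16 and 6.20 to 6.26. For B cells it ranged from 5.76 to 5.99, 5.72 to 5.82 and 5.90 to 5.97. These list means are near background, but the called genes were not all so. Sftpa1 averaged 7.04 in naive and 7.58 in chronic Th2 cells. Ccr3 averaged 5.67 in naive, 6.58 in acute Th2 and 6.74 in chronic Th2 cells. Cd79a averaged 5.64 in naive and 5.03 in chronic Th2 cells. What part other cell types have in the results was not tested. The array naive 1 stood apart. Its correlation across genes was 0.94 with naive 2 and with naive 3, against 0.99 between those, and Il2, a gene induced by restimulation, read 5.07 on naive 1 against 11.33 and 11.27 on naive 2 and 3. Myc read 10.19 there against 12.15 and 12.19, and Egr2 7.96 against 10.75 and 11.16. Over 24 early genes induced by the T cell receptor the median level was 8.47 on naive 1, 10.59 on naive 2 and 10.88 on naive 3. Many results that move with naive 1 are therefore given with and without it. Counts of genes whose arrays do not overlap between groups are given with it alone. Without naive 1, limma called 12.2% of all genes in acute Th2 against naive cells (6.05% higher and 6.11% lower) and 17.2% in chronic Th2 against naive cells (5.84% higher and 11.4% lower).

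Values are log2 intensities, so a difference of 1 is a doubling. A probe set's level was not set against another's. Differences were tested with limma over all 19937 genes, and those with a Benjamini-Hochberg adjusted p under 0.05 are named as called. The p-values measure the spread between these arrays. As a mark for background, the 95th percentile of 1015 olfactory receptor genes was 6.53, and 79 of the 89 genes lay above it. The 10 at or under it were Cox6b2, Cox7a1, Cox7b2, Cox8b, Ndufa1, Ndufa4l2, Ndufaf6, Ndufaf7, Ndufb2 and Ndufb3, and for these little can be said. Of 8 muscle genes 5 also lay above this mark in each group. Of 10 endothelium and stroma genes it was 6 in naive, 5 in acute Th2 and 5 in chronic Th2 cells. A level above the mark therefore does not by itself show that a gene is expressed. Cox6a2, Cox6b2, Ndufa12, Ndufa4l2, Ndufaf5 and Ndufb2 read the same value to the second decimal on 4 or more arrays. In RNA from bulk cells, fewer cells with a transcript and less of it per cell cannot be told apart.

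Most genes of the respiratory chain were not called in any comparison, which held for most of all genes too. In acute Th2 cells 3 of 89 genes were called against naive cells, Ndufv2 and Atp5g1 higher and Ndufa3 lower, against 5.87% of all genes (1171 genes, 3.67% higher and 2.2% lower). In chronic Th2 cells 4 of 89 were called against naive cells, Ndufv2 higher and Ndufa10, Ndufa3 and Uqcrh lower, against 7.88% of all genes (1571 genes, 3.68% higher and 4.2% lower). The balance of directions depended on the scaling, since quantile normalisation gave 3 higher (Ndufv2, Ndufa2 at 0.48 and Ndufa8 at 0.42) and 1 lower (Ndufa10), against 3.78% and 3.03% of all genes (6.81% in both directions). Between chronic and acute Th2 cells 0 of 89 were called, against 0.0301% of all genes (6 genes, 0.015% in each direction), and at an unadjusted p under 0.05 limma found 11 of 89, against 14.9% of all genes. At the same unadjusted threshold 16 of 89 passed in acute Th2 against naive cells (16.3% of all genes) and 15 of 89 in chronic Th2 against naive cells (25.6% of all genes). Both comparisons with naive cells share the naive arrays, so a gene called in both is not seen in independent data. Shares of called genes were 3.37% and 4.49% and lay below those of all genes in both comparisons with naive cells. No difference reached 1 log2 unit for any of the 89 genes, with 7, 9 and 3 genes over 0.5 in acute Th2 against naive, chronic Th2 against naive and chronic against acute Th2 cells.

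The intervals show how far this reaches. For 83 of 89 genes the 95% interval of the difference between acute Th2 and naive cells lay wholly within 1 log2 unit of 0, as it did for 87.4% of all genes. The exceptions were Atp5g1, Atp5md, Ndufaf4, Ndufb6, Ndufv2 and Uqcrfs1. The same held for 83 genes in chronic Th2 against naive cells (84.6% of all genes) and for 85 between both Th2 groups (92.4% of all genes). Within 0.5 log2 units lay 38, 35 and 42 genes, against 60.2%, 50.7% and 55.5% of all genes, so smaller changes are not settled for most of the chain.

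**Figure D1:**
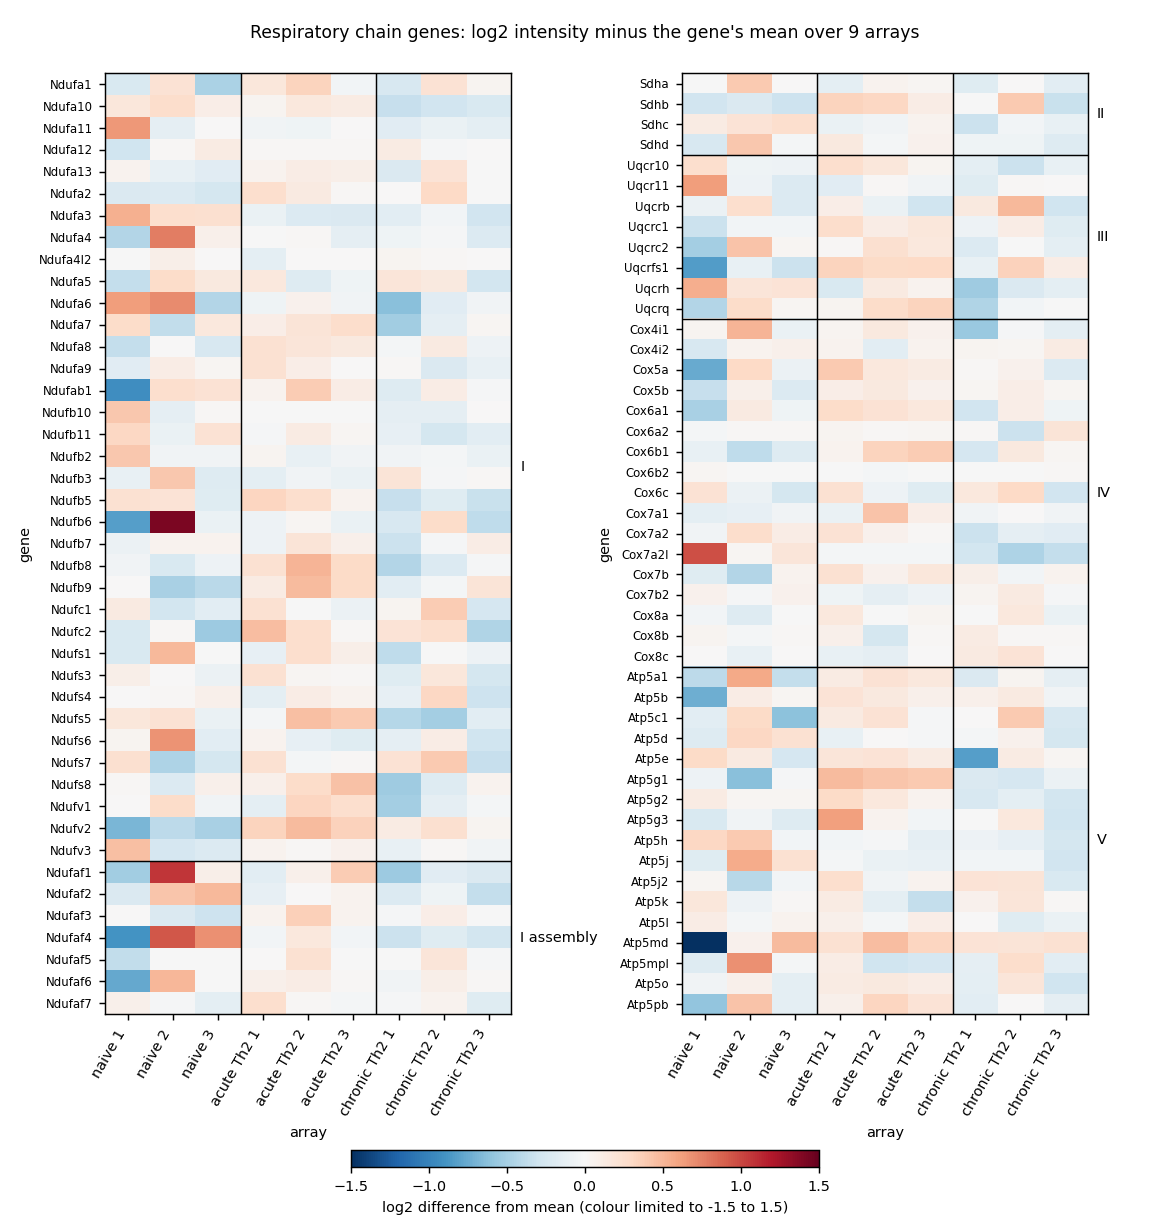
Each row is 1 of the 89 respiratory chain genes and each column 1 array, grouped by complex, and the colour gives the log2 intensity minus the gene's mean over 9 arrays (red above, blue below, colour limited at 1.5). The deepest colours lie in the columns naive 1 and naive 2, with Atp5md on naive 1 and Ndufb6 on naive 2 among them, and Ndufv2 is the row that is blue on all naive arrays and red on all 6 Th2 arrays by the widest margin.

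Ndufv2 encodes an iron-sulfur subunit of the NADH-oxidising tip of complex I. Its values were 9.52, 9.82 and 9.73 in naive cells, 10.55, 10.68 and 10.56 in acute Th2 cells and 10.33, 10.44 and 10.25 in chronic Th2 cells. All 6 Th2 arrays lay above all naive arrays, and each acute Th2 array lay above each chronic one. Against naive cells Ndufv2 rose by 0.91 in acute Th2 cells (SE 0.10, limma adjusted p = 0.000959, 1.88-fold) and by 0.66 in chronic Th2 cells (SE 0.10, adjusted p = 0.00566, 1.58-fold). Without naive 1 the rises were 0.82 (adjusted p = 0.00063) and 0.57 (adjusted p = 0.00402), and both calls held in all 18 alternatives tried. The chronic value was lower than the acute one by 0.25, and this difference was not called (95% interval -0.48 to -0.02, limma adjusted p = 0.325).

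The neighbours of Ndufv2 in the same tip were not called. Ndufv1, which binds NADH, differed by 0.07 in acute Th2 cells (95% interval -0.32 to 0.46) and by -0.30 in chronic Th2 cells (-0.69 to 0.09). Ndufs1, the large iron-sulfur subunit beside it, differed by -0.01 (-0.44 to 0.43) and by -0.24 (-0.67 to 0.20). Ndufv3, a small accessory subunit there, differed by 0.05 (-0.34 to 0.44) and by -0.04 (-0.43 to 0.34). The intervals of these genes end below the Ndufv2 difference, but whether the genes differ from Ndufv2 was not tested.

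Ndufa3, an accessory subunit of the membrane arm of complex I, was lower in both Th2 groups. It read 9.66, 9.37 and 9.36 in naive cells, 9.02, 8.92 and 8.91 in acute Th2 cells and 8.96, 9.08 and 8.84 in chronic Th2 cells. The naive arrays lay above all Th2 arrays, and the Th2 groups overlapped. It fell by 0.51 in acute Th2 cells (SE 0.11, limma adjusted p = 0.0247) and by 0.50 in chronic Th2 cells (SE 0.11, adjusted p = 0.0249). Without naive 1 the falls were 0.42 (adjusted p = 0.0232) and 0.41 (adjusted p = 0.0211). The acute call was lost when any 1 of the acute Th2 arrays was left out (adjusted p = 0.0558 without acute 1, 0.0998 without acute 2 and 0.107 without acute 3). The chronic call was lost without acute 3 (0.0519), chronic 1 (0.0864) or chronic 3 (0.052), and quantile normalisation gave -0.51 and -0.31 for the respective comparisons (adjusted p = 0.0687 and 0.209).

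Ndufa10, another accessory subunit of the membrane arm, was lower in chronic Th2 cells. It read 9.50, 9.60 and 9.43 in naive cells, 9.37, 9.49 and 9.45 in acute Th2 cells and 8.98, 9.04 and 9.10 in chronic Th2 cells. All chronic arrays lay below the other 6, while naive and acute arrays overlapped. It fell by 0.47 in chronic Th2 cells (SE 0.08, limma adjusted p = 0.00996), and by as much without naive 1 (adjusted p = 0.00907), with the call held in 17 of 18 alternatives. In acute Th2 cells the difference was -0.07 (95% interval -0.25 to 0.11). Set against acute Th2 cells, chronic ones were lower by 0.39 (-0.58 to -0.21), which had the lowest adjusted p of the 89 genes in that comparison (limma, 0.301) and was not called.

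Several other membrane arm subunits lay higher in acute Th2 cells without passing the test. Ndufb9 read 8.91, 8.41 and 8.50 in naive cells, 9.03, 9.37 and 9.18 in acute Th2 cells and 8.73, 8.86 and 9.09 in chronic Th2 cells. Acute arrays lay above naive ones, the lowest acute array close to naive 1. The acute difference was 0.59 (SE 0.16, limma adjusted p = 0.0734), and without naive 1 it was 0.74 and called (adjusted p = 0.00724). Ndufb8 read 7.63, 7.45 and 7.61 in naive, 7.91, 8.20 and 7.97 in acute Th2 and 7.25, 7.48 and 7.67 in chronic Th2 cells, a difference of 0.46 in acute Th2 cells (limma adjusted p = 0.0759) and of -0.56 between chronic and acute Th2 cells (adjusted p = 0.307). Ndufb8 was thus higher on the acute arrays than on the other 6. Ndufa8, which sits on the intermembrane side, differed by 0.38 (adjusted p = 0.089), and Ndufa2, in the matrix arm, by 0.36 (adjusted p = 0.0997). Over all 36 complex I subunits 21 lay above and 15 below 0 in acute Th2 cells with a median of 0.07, and 12 above and 24 below in chronic Th2 cells with a median of -0.09. Of all 19937 genes 8354 lay above and 11579 below 0 in acute Th2 cells, and 11417 above and 8518 below in chronic ones. Of the 9815 genes above background it was 4254 and 5561, and 3701 and 6114. The lowest complex I subunit in chronic Th2 cells was Ndufa6, at -0.58 with an interval from -1.24 to 0.07. Its naive arrays ran from 6.95 to 8.10. Without naive 3 the Ndufa6 difference was -0.95 and called (limma adjusted p = 0.0175).

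Among the complex I assembly factors, proteins that help to build the complex and are not part of it when finished, 0 of 7 were called in any comparison on all arrays. Their naive values were scattered. Ndufaf4 read 6.51, 8.33 and 8.09 in naive cells, 7.36, 7.56 and 7.36 in acute Th2 cells and 7.08, 7.22 and 7.12 in chronic Th2 cells. Naive 1 lay below all Th2 arrays and the other naive arrays above them, so that the differences of -0.22 and -0.51 had intervals from -1.13 to 0.69 and from -1.42 to 0.40. Without naive 1 the differences were -0.79 in acute Th2 cells (limma adjusted p = 0.00183) and -1.07 in chronic Th2 cells (adjusted p = 0.000297). Ndufaf2 went from -0.25 and -0.44 to -0.48 (adjusted p = 0.0209) and -0.67 (adjusted p = 0.00349) in the same way. Ndufaf3 was called higher in acute Th2 cells without naive 1, at 0.42 (adjusted p = 0.0437). Ndufaf1 was the lowest of these genes between chronic and acute Th2 cells, at -0.41 with an interval from -1.21 to 0.39.

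Complex II oxidises succinate and is also an enzyme of the tricarboxylic acid (TCA) cycle. None of its 4 genes was called in the 3 comparisons on all arrays (limma), and at an unadjusted p under 0.05 Sdhb and Sdhc passed in acute Th2 cells and Sdhc in chronic Th2 cells. Sdhb, the iron-sulfur subunit, read 8.18, 8.26 and 8.17 in naive, 8.81, 8.79 and 8.59 in acute Th2 and 8.47, 8.87 and 8.15 in chronic Th2 cells. Acute arrays lay above naive ones by a clear gap, while chronic arrays ran across both. The acute difference was 0.52 (SE 0.16, limma adjusted p = 0.132). Sdhc, a membrane anchor, went the other way, at -0.23 in acute and -0.35 in chronic Th2 cells (adjusted p = 0.28 and 0.0604), and was called in chronic Th2 cells without naive 1 (-0.39, adjusted p = 0.0356). Sdha, the flavoprotein, differed by -0.15 and -0.25 (intervals -0.44 to 0.13 and -0.53 to 0.04).

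In complex III, Uqcrh and Uqcrfs1 lay on opposite sides. Uqcrh is the hinge protein that helps cytochrome c1 pass electrons to cytochrome c. It read 9.80, 9.44 and 9.46 in naive cells, 9.03, 9.39 and 9.31 in acute Th2 cells and 8.72, 9.04 and 9.11 in chronic Th2 cells. Every Th2 array lay below every naive one. It fell by 0.61 in chronic Th2 cells (SE 0.15, limma adjusted p = 0.0439), and the acute difference of -0.33 was not called (adjusted p = 0.339). The chronic call held in 8 of 18 alternatives. Without chronic 1 the difference was -0.49 (adjusted p = 0.157), and the call was also lost without naive 2, naive 3, acute 2, acute 3 or chronic 2 (adjusted p = 0.0716, 0.0666, 0.0665, 0.0801 and 0.101). Without naive 1 it was -0.49 and called (adjusted p = 0.0479).

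Uqcrfs1 encodes the Rieske iron-sulfur protein, the electron acceptor from ubiquinol. It read 6.73, 7.45 and 7.25 in naive cells, 7.90, 7.86 and 7.87 in acute Th2 cells and 7.46, 7.92 and 7.68 in chronic Th2 cells. The Th2 arrays lay above the naive ones, though chronic 1 was barely above naive 2. The acute difference of 0.73 was not called (SE 0.19, limma adjusted p = 0.0577), and without naive 1 it was 0.53 and called (adjusted p = 0.0352). In chronic Th2 cells it was 0.54 (adjusted p = 0.114). The core proteins Uqcrc1 and Uqcrc2 differed by 0.32 and 0.16 in acute Th2 cells and by 0.09 and -0.10 in chronic ones, and were not called.

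**Figure D2:**
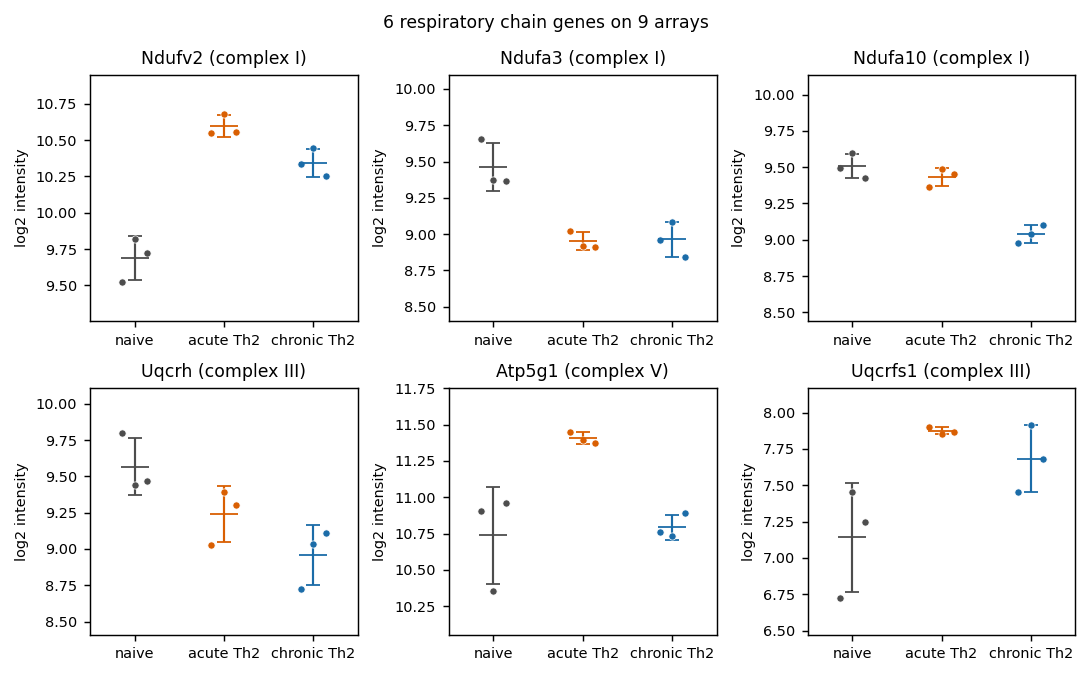
Points are single arrays, the short bar is the mean and the whisker the SD of 3 arrays, with log2 intensity on the vertical axis (each panel spans the same range) for the 5 called genes and Uqcrfs1. Ndufv2 is the gene with the widest gap between naive and Th2 arrays, Ndufa10 is low on the chronic arrays alone, and Atp5g1 is high on the acute arrays alone.

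Complex IV, cytochrome c oxidase, had 0 of 17 genes called in each comparison by limma on all arrays. At an unadjusted p under 0.05 stood Cox5b, Cox6b1 and Cox7b in acute Th2 cells, Cox7a2 and Cox7a2l in chronic Th2 cells, and Cox7a2 and Cox8c between both. Cox6b1, which faces the intermembrane space, read 9.68, 9.42 and 9.60 in naive, 9.85, 10.13 and 10.18 in acute Th2 and 9.55, 9.95 and 9.82 in chronic Th2 cells. Acute arrays lay above naive ones, and the difference was 0.48 (SE 0.13, limma adjusted p = 0.0864), or 0.54 and called without naive 1 (adjusted p = 0.0437). The core-associated subunits differed in acute Th2 cells by -0.07 (Cox4i1), 0.41 (Cox5a) and 0.26 (Cox5b), with intervals that reached from -0.48 to 0.35, from -0.13 to 0.94 and from 0.02 to 0.51.

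Cox7a2l, which links complexes III and IV into supercomplexes, had the lowest chronic difference of the 89 genes. It read 8.68, 7.74 and 7.90 in naive cells, 7.68, 7.68 and 7.68 in acute Th2 cells and 7.44, 7.25 and 7.35 in chronic Th2 cells. The chronic arrays lay below all others and naive 1 above all others. The chronic difference was -0.76 (SE 0.21, limma adjusted p = 0.0676), and without naive 1 it was -0.47 and called (adjusted p = 0.00933). The gene's other probe set, dimmer, differed by -0.97 in chronic Th2 cells. The related Cox7a2 differed by -0.32 in chronic Th2 cells, or -0.40 and called without naive 1 (adjusted p = 0.0303).

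Several complex IV subunits have forms that are known from heart and muscle, lung or testis. Those forms ranged over the 9 arrays by 0.57 log2 units at most (Cox7a1). Cox4i2, the hypoxia and lung form of subunit 4, ranged from 6.67 to 7.03, and its differences were 0.02 in acute and 0.10 in chronic Th2 cells. Cox6a2, the muscle form of subunit 6a, ranged from 7.42 to 7.94. By their means Cox7a1, Cox8b, Cox6b2 and Cox7b2 lay at background, though Cox7a1 read 6.56 on acute 2. Cox8c ranged from 6.56 to 6.91 and differed by 0.20 between chronic and acute Th2 cells (limma adjusted p = 0.332). Of 8 muscle genes used as a check, 0 were called. The hypoxia-induced Ndufa4l2 lay at background too, from 5.54 to 5.77.

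Of the ATP synthase, Atp5g1, Atp5g2 and Atp5g3 encode the same mature c subunit of the rotor with different import signals. Atp5g1 read 10.90, 10.35 and 10.96 in naive cells, 11.45, 11.40 and 11.37 in acute Th2 cells and 10.76, 10.73 and 10.89 in chronic Th2 cells. The acute arrays lay above the other 6, and naive and chronic arrays overlapped. It rose by 0.67 in acute Th2 cells (SE 0.15, limma adjusted p = 0.0372), and by 0.75 without naive 1 (adjusted p = 0.0153). The call held in 8 of 18 alternatives and was lost without any 1 acute or chronic array (adjusted p from 0.0571 without chronic 3 to 0.124 without acute 2). A second, dim probe set for Atp5g1 differed by 0.02. In chronic Th2 cells Atp5g1 differed by 0.06 from naive cells (-0.29 to 0.40) and by -0.61 from acute Th2 cells (-0.96 to -0.27, adjusted p = 0.322).

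Atp5g2 differed by 0.10 in acute and -0.28 in chronic Th2 cells, and Atp5g3 by 0.37 and 0.12, all not called. Both other probe sets of Atp5g2 differed by -0.02 in acute Th2 cells. The catalytic head subunits Atp5a1 and Atp5b differed by 0.22 and 0.34 in acute Th2 cells (intervals -0.30 to 0.75 and -0.11 to 0.80) and by -0.04 and 0.25 in chronic ones. Atp5j, coupling factor 6 of the stalk, read 9.59, 10.32 and 9.99 in naive cells, 9.74, 9.67 and 9.65 in acute Th2 cells and 9.72, 9.72 and 9.48 in chronic Th2 cells. Its naive 1 value lay below 5 of the 6 Th2 arrays and the other naive values above all 6. On all arrays it was not called. Without naive 1 it was lower in both Th2 groups, by -0.47 (limma adjusted p = 0.0409) and -0.52 (adjusted p = 0.0212).

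Atp5md, a small membrane subunit that helps ATP synthase dimers to hold together, showed the widest naive spread of the 89 genes. It read 8.38, 10.61 and 11.03 in naive cells, 10.78, 11.01 and 10.87 in acute Th2 cells and 10.76, 10.74 and 10.78 in chronic Th2 cells. Only naive 1 stood away from the rest, by -2.44 from the mean of naive 2 and 3. The differences of 0.88 and 0.75 therefore had intervals from -0.41 to 2.17 and from -0.54 to 2.04. A second probe set for the gene read 8.11 on naive 1 and 10.37 and 10.83 on naive 2 and 3. A further probe set read 7.62 on naive 1 and 8.44 and 8.25 on naive 2 and 3, so naive 1 was lowest there too, but by less. It differed from naive cells by 0.76 in acute and 0.13 in chronic Th2 cells, and by -0.63 between chronic and acute Th2 cells. The width of the naive 1 gap thus depended on the probe set.

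The array naive 1 lay over 1 log2 unit from the mean of naive 2 and 3 for 6 genes (6.74%), Atp5md, Ndufaf4, Ndufb6, Ndufab1, Ndufaf1 and Ndufaf6, and lower for each. Among all genes the share was 8.16%, and among genes above background 15.0%. Ndufb6, a membrane arm subunit, read 8.09, 10.33 and 8.82, so that naive 2 also stood away there. Ndufab1, the mitochondrial acyl carrier protein, read 7.34 on naive 1 against 8.52 and 8.49. The median SD of the 89 genes was 0.23 in naive, 0.11 in acute Th2 and 0.13 in chronic Th2 cells. Naive 1 was the lowest of 9 arrays for 23 genes and the highest for 14.

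**Figure D3:**
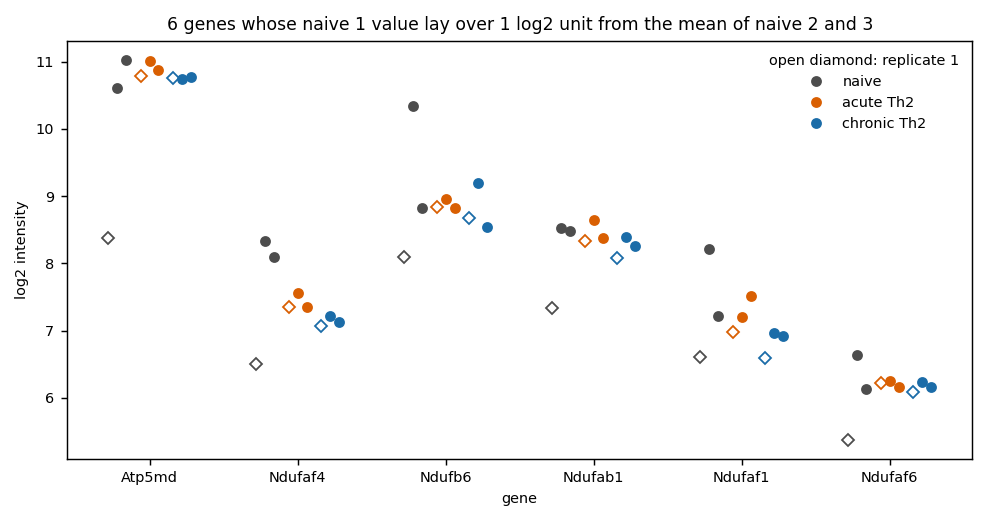
Log2 intensity of 6 genes on 9 arrays, with replicate 1 of each group as an open diamond and replicates 2 and 3 as filled circles. The naive diamond is the lowest of the naive points for every gene shown, from 8.38 for Atp5md to 5.38 for Ndufaf6, while the 6 Th2 points of a gene span less than its naive points.

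Leaving out naive 1 raised the number of called genes in both comparisons with naive cells. In acute Th2 cells 10 of 89 were called, against 12.2% of all genes. Higher were Ndufv2, Atp5g1, Ndufb9, Uqcrfs1, Cox6b1 and Ndufaf3, and lower were Ndufaf4, Ndufaf2, Ndufa3 and Atp5j. In chronic Th2 cells 10 of 89 were called as well, against 17.2% of all genes, with Ndufv2 higher and Ndufaf4, Ndufaf2, Ndufa10, Cox7a2l, Ndufa3, Atp5j, Cox7a2, Sdhc and Uqcrh lower. Between both Th2 groups it was 0 of 89, against 0.0602% of all genes. With naive 1 and chronic 3 both left out, 3 genes (3.37%) were called lower in chronic than in acute Th2 cells, Ndufb8, Ndufa10 and Ndufs5. Of all genes 2.61% were called lower there, and 5.45% in both directions.

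By complex, the median differences were small against naive cells. Between both Th2 groups they were all below 0 on the deposited scale. Quantile normalisation gave 0.03 for complex II, -0.01 for complex V, -0.03 for complex I and -0.09 for complex III. Complex IV (-0.08) and the assembly factors (-0.21) were then lower than on the deposited scale (-0.07 and -0.13). In acute Th2 cells the medians were 0.07 for complex I, 0.11 for its assembly factors, -0.07 for complex II, 0.14 for complex III, 0.03 for complex IV and 0.17 for complex V. With naive 1 left out, the median of the assembly factors turned to -0.18 and that of complex II was -0.17, while complexes III and V were both at 0.07, complex I at 0.04 and complex IV at 0.01. The median of the 89 genes was 0.09, that of all genes -0.03 and that of the genes above background -0.04. In chronic Th2 cells the medians ran from -0.20 (complex II) to 0.08 (complex IV), with -0.04 for the 89 genes, 0.04 for all genes and -0.12 for the genes above background. Without naive 1 they ran from -0.30 (complex II) to 0.03 (complex IV), with -0.06 for the 89 genes. The assembly factors moved from -0.02 to -0.23 and complex V from -0.04 to -0.11. On all arrays the chronic median of the 89 genes moved to -0.11 with arrays centred on their medians and to 0.03 with quantile normalisation, so its direction depends on the scaling.

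Between chronic and acute Th2 cells 72 of 89 genes lay below 0, against 8449 of all 19937 genes. Above background it was 67 of the 79 chain genes, against 6724 of all 9815 genes. The median of the 89 genes was -0.14, against 0.04 for all genes and -0.11 for the genes above background. The medians ran from -0.25 in complex III to -0.07 in complex IV. All 3 chronic arrays lay below all acute arrays for 27 genes (30.3%, against 10.8% of all genes), all 27 among the 79 genes above background (34.2%, against 20.1% of all genes above background), and above them for 3 genes (3.37%, against 11.8% of all genes), with 6.41% of genes above background apart in that direction. These shares moved with the scaling. After quantile normalisation the median was -0.04 with 55 of 89 below 0, against 10031 of all 19937 genes. Apart downward lay 14 genes (15.7%), against 9.81% of all genes. Among the 79 genes above background it was then 11 (13.9%, against 10.9%). The median level of the olfactory receptor genes, a reading of background, was 5.67 and 5.51 on chronic 1 and 2 and from 4.94 to 5.21 on the other arrays, and its part in these differences was not tested. The lowest differences were those of Ndufs5 (-0.63), Atp5g1 (-0.61) and Ndufb8 (-0.56), all not called.

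Against naive cells the acute Th2 arrays lay apart upward for 17 genes (19.1%, against 8.8% of all genes). They lay apart downward for 5 (5.62%, against 10.9% of all genes). Among the 79 genes above background it was 17 upward (21.5%, against 13.0% of all genes above background) and 4 downward (5.06%, against 15.1%). The chronic Th2 arrays lay apart upward for 5 (5.62%, against 15.6% of all genes) and downward for 12 (13.5%, against 12.3%). Among the 79 genes above background it was 4 upward (5.06%, against 12.4% of all genes above background) and 12 downward (15.2%, against 21.3%). After quantile normalisation the acute counts were 15 upward (16.9%, against 10.2% of all genes) and 5 downward (5.62%, against 13.5%). For the 79 genes above background the acute counts were then 15 (19.0%, against 14.2%) and 4 (5.06%, against 16.5%). The chronic counts after quantile normalisation were 9 upward (10.1%, against 12.0% of all genes) and 11 downward (12.4%, against 15.5%). Among the 79 genes above background they were then 9 (11.4%, against 16.4%) and 7 (8.86%, against 15.0%).

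**Figure D4:**
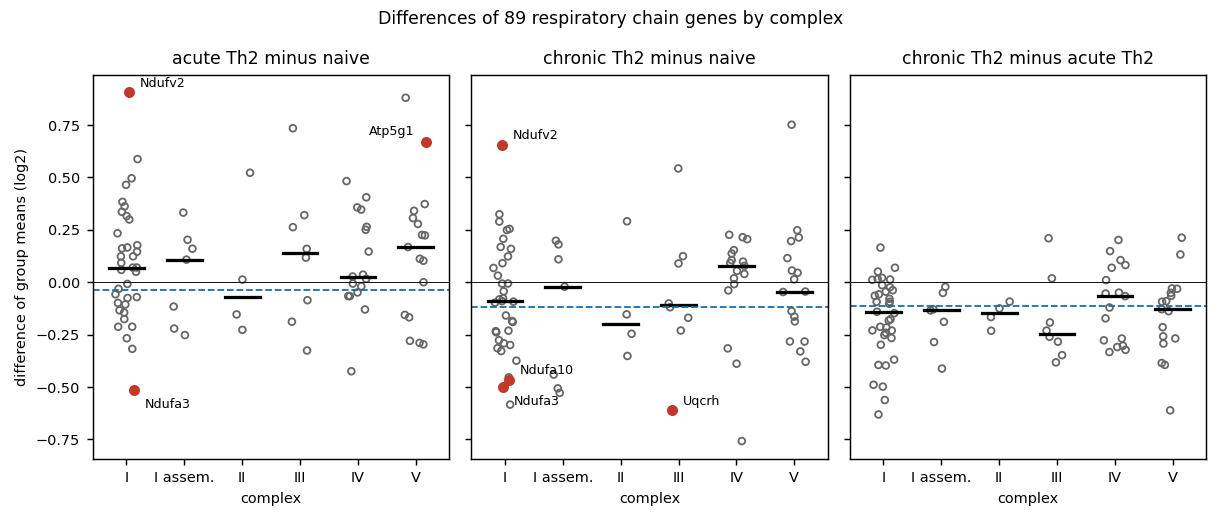
Each point is 1 gene, with its difference of group means on the vertical axis in log2 units and its complex on the horizontal axis, in 3 comparisons. Filled red points passed the test, black bars are the medians of a complex, and the dashed line is the median of the genes above background (-0.04, -0.12 and -0.11 from left to right). The black bars lie near the dashed line, and no point is filled in the comparison of both Th2 groups.

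Other genes of mitochondrial energy metabolism were set beside the chain as lists. Of 8 genes of electron carriers and their partners, Etfb, which passes electrons from fatty acid oxidation to the chain, rose by 0.86 in acute Th2 cells (limma adjusted p = 0.0196), and 0 were called in chronic Th2 cells. Of 34 assembly genes, mainly of complexes II to V, Sco1, which delivers copper to complex IV, rose by 1.02 in acute Th2 cells (adjusted p = 0.0143). Lyrm7, which helps to insert the Rieske protein, fell by 0.43 and 0.41 in acute and chronic Th2 cells (adjusted p = 0.024 and 0.0274) at levels under background. Sdhaf1, which helps to give the complex II iron-sulfur subunit its clusters, fell by 1.24 in chronic Th2 cells (adjusted p = 0.0478). Without naive 1 the assembly list had 1 higher and 3 lower in acute and 0 higher and 9 lower in chronic Th2 cells, a setting in which calls rose over all genes too (6.05% higher and 6.11% lower in acute, 5.84% higher and 11.4% lower in chronic Th2 cells).

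Of 17 regulators of mitochondrial biogenesis 0 were called in acute Th2 cells and 1 in chronic ones. It was Nrf1, a transcription factor known to act on many nuclear genes of the chain, which fell by 0.42 (limma adjusted p = 0.0151, called in 12 of 18 alternatives). Without naive 1 the list had 3 and 6 called lower. Of 18 TCA cycle genes Ogdh, a subunit of the oxoglutarate dehydrogenase complex, fell by 0.53 in chronic Th2 cells (adjusted p = 0.0279), and 0 were called in acute ones. Of 77 mitochondrial ribosome genes Mrpl30 fell in acute (by 0.36) and chronic (by 0.49) Th2 cells and Mrpl33 rose by 0.75 in chronic ones. With naive 1 left out, 1 ribosome gene was higher and 5 were lower in acute Th2 cells, and 1 was higher and 18 were lower in chronic ones. Of 19 genes of mitochondrial import and dynamics, Tomm22, a receptor of the import pore, fell by 0.34 in chronic Th2 cells. Without naive 1, 3 were lower in acute and 11 in chronic Th2 cells, where 11.4% of all genes were called lower.

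Single genes of glycolysis and of the hypoxia response changed in the Th2 groups. Of 17 glycolysis genes Tpi1 rose by 1.54 and Aldoa by 0.80 in acute Th2 cells (limma adjusted p = 0.00315 and 0.00685), and the glucose transporter gene Slc2a3 fell by 0.74 (adjusted p = 0.00985). In chronic Th2 cells Tpi1 rose by 1.13 and Slc2a3 fell by 0.82. Without naive 1 the glycolysis list had 4 higher and 2 lower in acute Th2 cells, its median moving from 0.25 to 0.02, and 1 higher and 5 lower in chronic ones, its median moving from -0.03 to -0.23. Of 8 hypoxia reporters Egln3 rose by 3.12, Bnip3 by 1.39 and Hif1a by 1.38 in acute Th2 cells, and Egln3 by 2.71 and Hif1a by 1.39 in chronic ones. Bnip3 encodes a receptor for the removal of mitochondria. With naive 1 left out, the hypoxia reporters had 3 higher and 0 lower in acute Th2 cells, with a median that turned from 0.28 to -0.06, and 3 higher and 1 lower in chronic ones. Of the 24 early genes induced by the T cell receptor, 3 were called higher and 1 lower in acute Th2 cells and 3 higher and 2 lower in chronic ones. Ifng, Ier3 and Nfkbiz were the higher ones in both, by 1.98, 1.85 and 0.92 in acute Th2 cells. The early genes are those on which naive 1 stood apart, and without it 7 were higher and 8 lower in acute Th2 cells and 7 higher and 10 lower in chronic ones. In chronic against acute Th2 cells limma called 0 genes of any of these lists.

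Many of these list calls did not hold when 1 array was left out. Each of the following was lost when 1 named array was left out. The limma adjusted p without it is given for the array that raised it most. Leaving out an array of the group outside a comparison does not change the difference itself. It acts through the estimate of spread shared by the 3 groups and through the adjustment. Etfb was lost without naive 2, naive 3, acute 2 (0.09) or acute 3, and Sco1 without acute 2 (0.0726) or acute 3. Sdhaf1 was lost without naive 3, acute 2, acute 3 or any chronic array (0.181 without chronic 1). Nrf1 was lost without naive 2, chronic 1 or chronic 2 (0.0593), and Ogdh without acute 2, chronic 1 (0.11) or chronic 2. Lyrm7 was lost in acute Th2 cells without naive 2 or any acute array (0.106 without acute 3) and in chronic ones without naive 2, acute 3, chronic 1 or chronic 2 (0.0977). Mrpl30 was lost in acute Th2 cells without naive 2 or any acute array (0.099 without acute 3), and Mrpl33 without naive 2, any acute array, chronic 1 or chronic 2 (0.134). Tomm22 was lost without naive 2, naive 3, acute 2, acute 3, chronic 1 (0.116) or chronic 2. Hif1a was lost in acute Th2 cells without any acute array, chronic 1 or chronic 2 (0.105 without acute 2) and in chronic ones without acute 2, acute 3, chronic 1 or chronic 2 (0.088), and Nfkbiz without several arrays (0.103 and 0.113 at most). Tpi1 was lost in chronic Th2 cells without chronic 1 (0.0585), while the calls of Aldoa, Slc2a3, Egln3, Bnip3, Ifng and Ier3 held without any 1 array.

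The start regions of the genes were read for motifs of factors known to act on respiratory chain genes. The genes were chosen by symbol, but the motifs were taken for this known link. Their shares therefore describe the genes and test nothing. RefSeq start regions (build GRCm38.p6, 250 bases before to 50 after the start) were found for 73 of the 89 genes, 78 regions in all. The NRF1 motif CGCATGCG was present in 11 (14.1%), against 1.87% of all 32851 regions and 3.97% of those of genes above background. The ETS motif CCGGAAG, bound by the factor GABP among others, was present in 18 (23.1%, against 8.86% and 18.1%). The YY1 motif AANATGGCG was present in 10 (12.8%, against 2.38% and 5.3%). At least 1 of the 3 was present in 33 (42.3%, against 12.2% and 25.0%). Both strands were searched, and matches of different motifs did not overlap. A match describes letters and not a bound site.

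The 250 bases before the start are shown, 5′ to 3′ on the gene's strand, for Ndufv2 and Ndufa10, the genes whose calls held most widely and whose region has none of these motifs, for Uqcrh with an ETS motif, and for Atp5j, whose first region alone holds all 3. Capitals mark the matches (in Uqcrh on the opposite strand).
Ndufv2 (chr17:66101560-66101809, - strand): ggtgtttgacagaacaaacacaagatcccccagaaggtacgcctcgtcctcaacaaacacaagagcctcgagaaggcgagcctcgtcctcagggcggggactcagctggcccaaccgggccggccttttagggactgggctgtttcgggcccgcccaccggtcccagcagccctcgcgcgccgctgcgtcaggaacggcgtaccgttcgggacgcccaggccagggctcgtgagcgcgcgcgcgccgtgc
Ndufa10 (chr1:92473759-92474008, - strand): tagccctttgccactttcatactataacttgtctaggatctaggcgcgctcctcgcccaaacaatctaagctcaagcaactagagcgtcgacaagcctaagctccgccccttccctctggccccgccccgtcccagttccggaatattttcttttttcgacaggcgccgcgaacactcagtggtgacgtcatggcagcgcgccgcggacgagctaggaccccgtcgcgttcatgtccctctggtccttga
Uqcrh (chr4:116075071-116075320, - strand): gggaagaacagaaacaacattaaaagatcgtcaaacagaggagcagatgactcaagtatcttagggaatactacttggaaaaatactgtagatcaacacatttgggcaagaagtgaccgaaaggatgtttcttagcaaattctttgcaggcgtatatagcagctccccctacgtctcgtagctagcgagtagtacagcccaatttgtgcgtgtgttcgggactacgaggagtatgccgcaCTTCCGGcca
Atp5j (chr16:84834977-84835226, - strand): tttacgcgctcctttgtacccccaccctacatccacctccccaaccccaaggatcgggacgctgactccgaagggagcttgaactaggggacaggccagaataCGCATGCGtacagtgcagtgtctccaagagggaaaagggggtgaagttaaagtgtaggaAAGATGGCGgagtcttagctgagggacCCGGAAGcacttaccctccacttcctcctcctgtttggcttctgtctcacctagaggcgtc
In Atp5j the NRF1 match begins at base 104, the YY1 match at base 163 and the ETS match at base 190 of the stretch. Ndufa3, Atp5g1 and Uqcrfs1 held none of the 3 motifs in their regions. Of the 5 called genes, Uqcrh was thus the 1 with a match.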

How the data were processed

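RNA from 9 samples in 3 groups was measured on Affymetrix arrays. The authors deposited 1 log2 intensity per probe set and array, made with RMA, per the submitters' processing notes, which also name limma. Versions, build and filters are not stated there. RMA sets all arrays to a shared distribution of probe values, so a shift common to all genes would not be seen. The gene values used here still differed between arrays. Their median over genes above background ran from 7.56 (chronic 1) to 7.85 (naive 2). The platform's annotation pairs 22961 of 34760 probe sets with genes, 21640 of them with exactly 1. The brightest probe set per gene gave 19937 genes, with no filter on dim ones. A linear model with group as the only term was fitted to all 9 arrays (limma 3.58.1 with eBayes, R 4.3.3), and two-sided p-values got a Benjamini-Hochberg adjustment across the genes of each comparison. The script was tested on simulated data. Named are the called genes, the highest and lowest of a complex, core subunits, paired isoforms and, of each list, up to 4 called genes. Others, such as Ndufb8, Ndufa8, Ndufaf1, Atp5j and Atp5md, were named after their values were seen. Members and lists were chosen with earlier results of these data known. Tried as alternatives were leaving out arrays, other fits, other scalings, a filter on dim genes and averaged probe sets. The number of arrays limits the precision.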

Additional observations from a re-analysis of the deposited data

How the results depend on the processing

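In 141 pairs of a named gene and a comparison, 18 alternatives gave 2347 values with the same call, 46 that became called, 127 that lost the call and 0 that reversed a called direction, and in 73 of the first the sign differed while the gene was called in neither. Leaving out 1 array gave from 1 to 10 respiratory chain genes called in acute Th2 against naive cells, 2 to 10 in chronic Th2 against naive cells and 0 to 0 between both Th2 groups, with 653 to 2424, 734 to 3438 and 0 to 12 of all genes. The highest counts came without naive 1. The median differences ran from 0.05 to 0.12, from -0.07 to 0.02 and from -0.19 to -0.11. Without naive 1 and chronic 3 the chain counts were 11, 11 and 3, with 2624, 4665 and 1087 of all genes. With array weights they were 13, 16 and 21, with 4019, 4675 and 6721 of all genes. With the 2 groups alone, all genes called were 762, 686 and 2, and 2 chain genes were called in chronic Th2 against naive cells. A variance trend with robust fitting gave 1 chain gene in each comparison with naive cells and 3 of all genes between both Th2 groups. Quantile normalisation gave 1 chain gene in acute Th2 against naive cells, 3 higher and 1 lower in chronic Th2 against naive cells, and a median of -0.0362 between both Th2 groups. The cause of these shifts was not tested.

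The labels used here do not say whether replicate numbers pair the samples, and the correlations do not settle it. Those of same-numbered arrays ranged from -0.09 to 0.57 (acute 1 with chronic 1, the highest). Those of differently numbered arrays ranged from -0.56 to 0.44, and acute 2 correlated best with chronic 3. With the replicate number as a block, 4, 4 and 0 chain genes and 1261, 1844 and 0 of all genes were called. The precision is limited by 3 arrays a group and, for the 10 genes at background, by signal.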
